A study of Mus musculus and Homo sapiens with 22 samples.

Results

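The 39 genes described here encode the enzymes and transporters of glycolysis and a set of genes induced by low oxygen, among 22667 mouse gene identifiers in each file. They were taken from a fixed list of symbols, chosen with earlier results of these data known. The symbols were matched to the identifiers of the files, and all 39 were found. All of the data come from N2A cells, a mouse neuroblastoma line. In the first experiment, siU2af65 cells received an siRNA pool against U2af65 (the large subunit of the U2AF splicing factor, gene U2af2), siPtbp1 cells a pool against Ptbp1 (a splicing repressor) and siCtrl cells a non-targeting pool, and all were harvested 48 hours after transfection. The siU2af65 library carries the letter a in its label and the siPtbp1 library the letter b, and there were 2 siCtrl libraries, a and b. In the second experiment, shnSR100 cells carried a lentiviral hairpin against the 3′ UTR of nSR100 (a neural splicing activator, gene Srrm4), shGFP cells carried a hairpin against GFP, and both were stable populations kept in 2 ug/mL puromycin. Each hairpin file combines 2 sequencing runs of different read length, so neither has replicates. The measurement was poly(A) RNA-seq, deposited as a read count and an RPKM per gene, which is the count corrected for gene length and sequencing depth.

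Reads assigned to genes came to between 60220620 (shGFP) and 77138004 (siCtrl b) per file. The targeted genes were low where the labels say so. U2af2 had 18.4 RPKM in siU2af65, against 105 and 113 in siCtrl b and siCtrl a. Ptbp1 had 8.53 RPKM in siPtbp1, against 139 and 158 in siCtrl b and siCtrl a. Srrm4 had 2.50 RPKM in shnSR100, against 11.6 in shGFP. Of 10 markers of sympathetic neuroblasts, 9 reached 1 RPKM in a file and their summed RPKM lay between 731 and 1064. Summed RPKM of 4 astrocyte markers and of 5 immune markers stayed at or under 0.48 and 1.1 in every file, while 7 fibroblast markers summed to 12.4 in shnSR100 and 7.41 in shGFP and to at most 0.84 in the siRNA libraries. Markers of 2 further cell types were highest in siU2af65. The 4 oligodendrocyte markers summed to 5.14 RPKM in siU2af65 and to between 2.35 and 2.68 in the other files. The 4 endothelial markers summed to 9.38 RPKM in siU2af65, between 4.61 and 5.22 in the other siRNA libraries, 7.57 in shnSR100 and 6.65 in shGFP. The 4 epithelial markers stayed between 0.73 and 1.09. The part of these markers in the results was not tested. In bulk RNA, fewer cells with a transcript and less transcript per cell cannot be told apart.

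Glycolysis splits glucose into pyruvate in the cytosol, and tumour cells commonly run it fast and turn the pyruvate into lactate. The transcription factor HIF-1 adjusts the pathway to oxygen. Its alpha subunit, from Hif1a, is hydroxylated by the prolyl hydroxylases Egln1 and Egln3 and then degraded while oxygen is present. When oxygen is low it accumulates, pairs with the subunit from Arnt and binds DNA at a short element whose core reads ACGTG or GCGTG, beside genes of glucose uptake, glycolysis, blood vessel growth, mitophagy and oxygen sensing itself. Because this control acts largely on the protein, the level of Hif1a RNA does not report the activity of the factor.

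Promoter sequences are shown first because most of these genes are known targets of one factor. Whether that factor had a part in the differences between libraries was not tested. RefSeq promoter windows on mouse build GRCm38.p6 cover 250 bases before to 50 bases after a transcription start. A window was found for 36 of the 39 genes, with Ero1l listed under its newer symbol Ero1a. No window was matched for Slc2a3, Bnip3l and Ndrg1. The 29 bases below are read 5′ to 3′ on the strand of the gene and lie before its transcription start, and capitals mark each ACGTG or GCGTG in them, on either strand, so that overlapping matches run together. Slc2a1, Bnip3, Pgk1, Ldha, Adm, Pdk1, Ddit4 and Higd1a all had lower levels in siCtrl b than in siCtrl a, and Hif1a and Pfkfb3 did not.
Slc2a1: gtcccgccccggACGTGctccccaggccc
Bnip3: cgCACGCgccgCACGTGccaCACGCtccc
Pgk1: gcgtcgtgcaggACGTGacaaatggaagt
Ldha: ggcccagcctaCACGTGggttcccgcacg
Adm: ggcaaatctgacCACGCccaccgtccgcc
Pdk1: ccgcctacatggGCGTGtctttaaccagg
Ddit4: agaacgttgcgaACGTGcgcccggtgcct
Higd1a: ccggtctagcctGCGTGCGTGgcgttcgc
Hif1a: tggctgagagcaACGTGggctggggtggg
Pfkfb3: ctccgcgccgtgACGTGccaagctgtgac
The Slc2a1 window is at chr4:119108697-119108725 (plus strand), and those of Bnip3 and Pgk1 are at chr7:138909597-138909625 (minus strand) and chrX:106186938-106186966 (plus strand). The Ldha window is at chr7:46845745-46845773 (plus strand), and those of Adm and Pdk1 are at chr7:110627591-110627619 (plus strand) and chr2:71873134-71873162 (plus strand). The Ddit4 and Higd1a windows are at chr10:59951941-59951969 (minus strand) and chr9:121857850-121857878 (minus strand). The Hif1a and Pfkfb3 windows are at chr12:73907785-73907813 (plus strand) and chr2:11553973-11554001 (minus strand).

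Searched on both strands of the 300-base windows, ACGTG was present in 26 of the 36 genes (72.2%) and GCGTG in 24 (66.7%). At least one of them was present in 33 genes (91.7%). Over all 27025 genes with a window, the shares were 21.8%, 35.2% and 46.7%. Over the 9351 of these genes with at least 1 RPKM in an N2A file, they were 29.5%, 56.6% and 68%. ACGTG also lies inside CACGTG, the element of many other factors, and the printed windows of Bnip3 and Ldha hold it. Of the genes with a window, 23 were lower in siCtrl b by 1 or more on the log2(RPKM + 1) scale. These 23 held ACGTG in 69.6% of cases, and the other 13 genes held it in 76.9%. For GCGTG the shares ran the other way, at 69.6% and 61.5%. Some of the 13 were also lower in siCtrl b, by less than 1, such as P4ha1 (-0.98) and Pkm (-0.93). Both Hif1a and Pfkfb3, which were not lower there, carry ACGTG in the window. Whether either motif goes with the gap was not tested. A match is a run of letters and not a measured binding site.

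Levels ranged over several orders of magnitude across the 39 genes. On the RPKM scale the aldolase gene Aldoa was the highest in the siU2af65, siCtrl and hairpin files, at 2059 in siU2af65, 1258 in siCtrl b, 3146 in siCtrl a, 879 in shnSR100 and 1126 in shGFP. In siPtbp1 the pyruvate kinase gene Pkm was higher than Aldoa, at 964 against 903 RPKM. By reads, Pkm was above Aldoa in every file, with 289102 against 157541 in siCtrl a, so the rank of Aldoa depends on the length used for each gene. Egln3, a prolyl hydroxylase, lay between 0.14 and 0.39 RPKM, and Car9, a carbonic anhydrase strongly induced by hypoxia in many tumour lines, between 0.4 and 0.92. These 2 genes stayed under 1 RPKM in every file, and the counts below are over the other 37 unless all 39 are named. In 33 of the 37 genes the highest level of the 6 files was in siCtrl a, and in 31 of them siU2af65 came second. The shares of all genes with these orders were not counted. Summed over all 39 genes, RPKM came to 10833 in siU2af65, 6315 in siPtbp1, 7266 in siCtrl b, 16744 in siCtrl a, 4728 in shnSR100 and 5225 in shGFP.

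**Figure D1:**
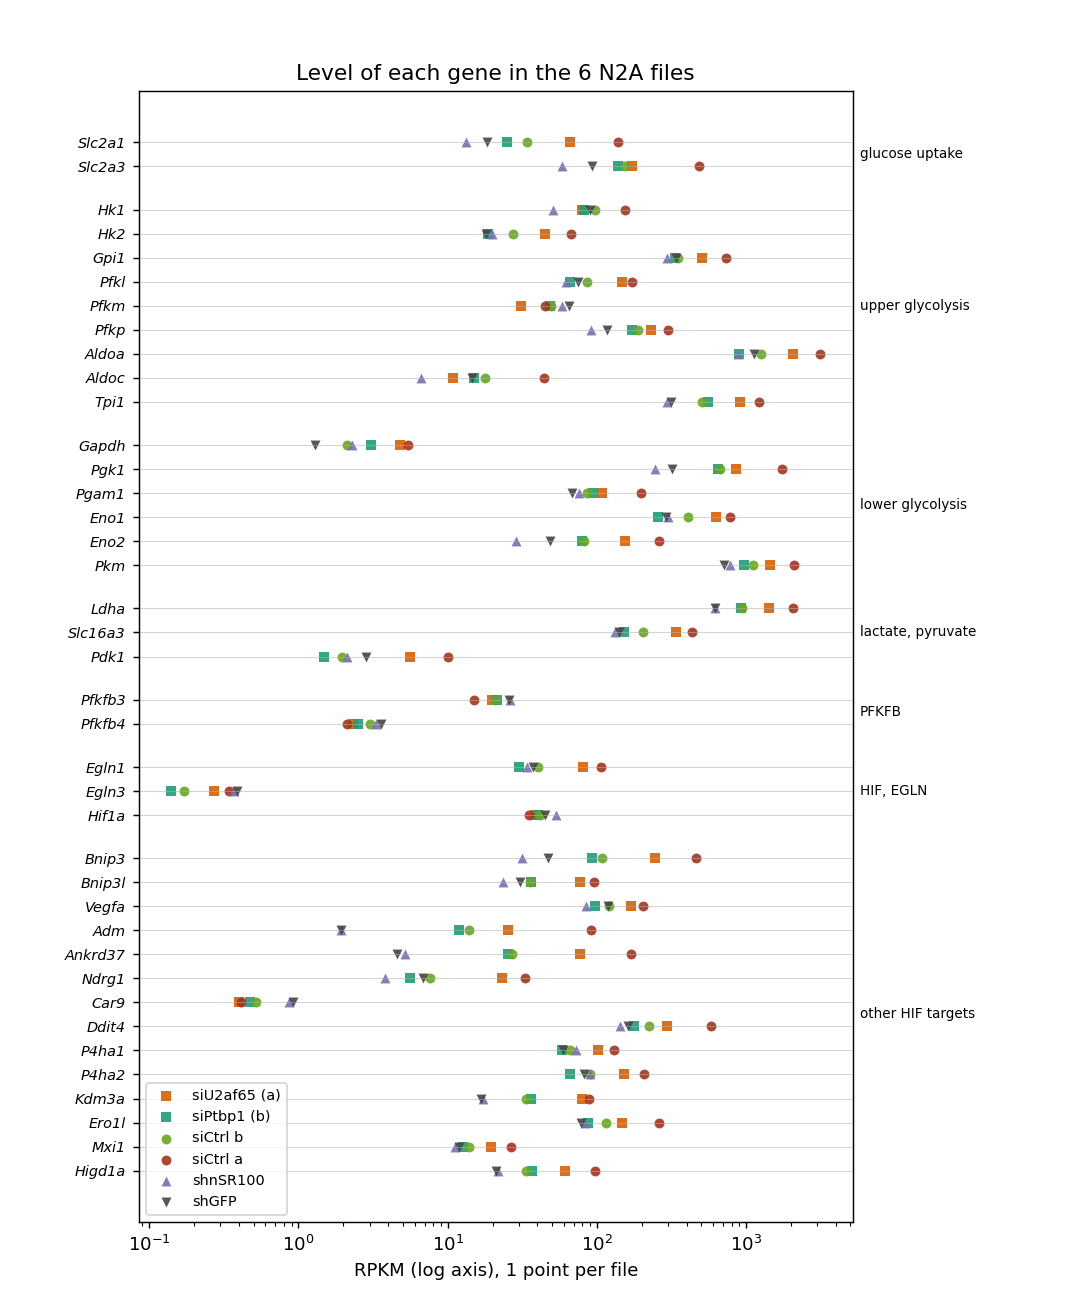
Level of each of the 39 genes in the 6 N2A files, in RPKM on a log axis, with 1 point per file and the genes grouped by role. In 33 of the 37 genes with at least 1 RPKM the siCtrl a point is the rightmost, and the 4 exceptions are Pfkm, Pfkfb3, Pfkfb4 and Hif1a. The share of all genes highest in siCtrl a was not counted.

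The 2 control libraries differed more in these genes than in most others. On the log2(RPKM + 1) scale, 26 of the 37 genes were lower in siCtrl b than in siCtrl a by 1 or more, which is about 2-fold for well-expressed genes, and none was higher by as much. Among all 11350 genes with at least 1 RPKM in either library, 108 were lower by as much, or 0.952%. The median difference was -1.19 over the 37 genes, against 0.15 over all genes. In the other direction, the difference was positive for Pfkm (0.14), Hif1a (0.24), Pfkfb4 (0.37) and Pfkfb3 (0.44), and relative to the all-gene median of 0.15 Pfkm turns slightly negative. Of the 108 genes lower in siCtrl b, 26 (24.1%) belong to the 39, which is 66.7% of the 39, and 73 belong to none of the pathway lists used here. These are single libraries under the same treatment label, so the gap has no test. The 39 genes were chosen with earlier results of these data known, so their excess over all genes is descriptive only.

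Glucose uptake showed one of the widest gaps. Slc2a1, the GLUT1 glucose transporter, had 33.9 RPKM in siCtrl b and 139 in siCtrl a, so that siCtrl b held 24.3% of the siCtrl a level (95% counting interval 23.7 to 25%). Its level was 66.2 RPKM in siU2af65, 25 in siPtbp1, 13.3 in shnSR100 and 18.3 in shGFP. Slc2a3, the high-affinity GLUT3 transporter of neurons, had 172 RPKM in siU2af65, 138 in siPtbp1, 155 in siCtrl b, 487 in siCtrl a, 58.3 in shnSR100 and 93.0 in shGFP. For both transporters siCtrl a stood far above the other 5 files. The counting intervals throughout are exact binomial intervals on the reads of 2 files and cover counting error only.

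Hexokinase, which traps glucose in the cell as its phosphate, is encoded by several paralogs, of which Hk1 and Hk2 had much higher levels than Hk3 and Hkdc1. Hk1, the widely expressed form, had 79.0 RPKM in siU2af65, 81.7 in siPtbp1, 96.5 in siCtrl b, 156 in siCtrl a, 50.8 in shnSR100 and 89.8 in shGFP. Hk2, the form raised in many tumours and by HIF-1, had 44.7 RPKM in siU2af65, 18.5 in siPtbp1, 27.4 in siCtrl b, 66.8 in siCtrl a, 19.8 in shnSR100 and 18.1 in shGFP. Hk1 was therefore above Hk2 in every file, as a ratio by the least in siU2af65 and by the most in shGFP. Hk3 lay between 0.13 and 0.42 RPKM. Hkdc1, a hexokinase-like gene, had 1.49 RPKM in siU2af65, 0.31 in siPtbp1, 0.45 in siCtrl b, 0.19 in siCtrl a, 0.72 in shnSR100 and 1.27 in shGFP.

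In the upper steps of the pathway, from hexokinase to triose phosphate isomerase, 8 of 9 genes were lower in siCtrl b than in siCtrl a, and 6 of the 9 by 1 or more. Aldoa, which splits fructose 1,6-bisphosphate, had 1258 RPKM in siCtrl b and 3146 in siCtrl a. Aldoc, the aldolase of brain, had 10.8 RPKM in siU2af65, 14.9 in siPtbp1, 17.7 in siCtrl b, 44.6 in siCtrl a, 6.58 in shnSR100 and 14.7 in shGFP. Gpi1, the phosphoglucose isomerase, Tpi1, the triose phosphate isomerase, and Pfkl, the liver phosphofructokinase, differed by -1.07, -1.28 and -1 between siCtrl b and siCtrl a. Pfkp, the platelet phosphofructokinase, differed by -0.66. The muscle form Pfkm did not share this gap, with a difference of 0.14, against an all-gene median of 0.15. It had 30.8 RPKM in siU2af65, 48.5 in siPtbp1, 49.4 in siCtrl b, 44.9 in siCtrl a, 58.3 in shnSR100 and 64.6 in shGFP. Among the 3 phosphofructokinase genes, Pfkp was the highest in RPKM in every file, and Pfkm came closest to Pfkl in the hairpin files.

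In the lower steps, from glyceraldehyde phosphate dehydrogenase to pyruvate kinase, all 6 genes were lower in siCtrl b, 4 of them by 1 or more. Pgk1, the phosphoglycerate kinase, had 861 RPKM in siU2af65, 646 in siPtbp1, 672 in siCtrl b, 1752 in siCtrl a, 246 in shnSR100 and 316 in shGFP. Eno2, the neuron-specific enolase, had 154 RPKM in siU2af65, 79.4 in siPtbp1, 81.8 in siCtrl b, 262 in siCtrl a, 28.5 in shnSR100 and 48.2 in shGFP. Its gap between siCtrl b and siCtrl a (-1.67) was wider than that of Eno1, the widely expressed enolase (-0.93). Eno1 had 628 RPKM in siU2af65, 255 in siPtbp1, 411 in siCtrl b, 782 in siCtrl a, 302 in shnSR100 and 290.3 in shGFP. Pgam1, the phosphoglycerate mutase, lay between 68.3 and 196 RPKM.

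Pkm encodes muscle pyruvate kinase in 2 splice forms, PKM1 and PKM2, and Ptbp1 is known to favour the PKM2 form by repressing an exon of PKM1. One value per gene does not separate the 2 forms. Pkm as a whole had 1442 RPKM in siU2af65, 964 in siPtbp1, 1110.1 in siCtrl b, 2109 in siCtrl a, 786 in shnSR100 and 714 in shGFP. The siPtbp1 library held 86.9% of the siCtrl b level (95% counting interval 86.3 to 87.5%), a smaller distance than that between the controls. Pklr, the liver and red cell pyruvate kinase, lay between 0.01 and 0.17 RPKM.

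Gapdh, the glyceraldehyde phosphate dehydrogenase gene and a customary loading control, rested on very few reads in these files. It had 4.81 RPKM in siU2af65, 3.08 in siPtbp1, 2.10 in siCtrl b, 5.43 in siCtrl a, 2.28 in shnSR100 and 1.29 in shGFP, from 13 to 58 reads per file. The length by which the deposited RPKM was scaled, called effective length here, was 167 bases for Gapdh and 155 for Pgam1. It was also short for Eno1 (402 bases), Gpi1 (711) and Aldoa (783), against 2143 for Pkm. The counting rule behind these lengths is not given in the sources used here, so the values of Gapdh and Pgam1 are uncertain. The RPKM ranks of Eno1, Gpi1 and Aldoa against other genes carry the same limit.

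**Figure D2:**
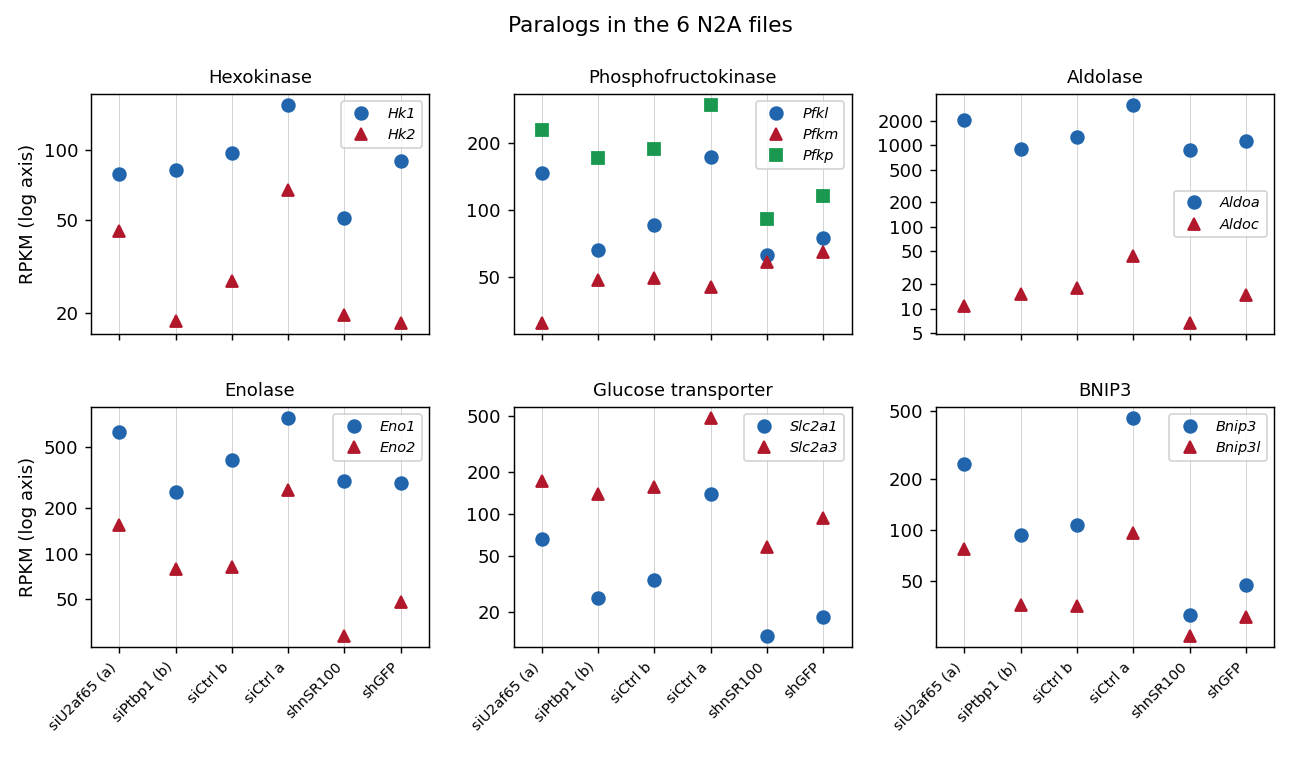
RPKM on log axes for 6 groups of paralogs in the 6 N2A files, with 1 point per gene and file. Hk1 lies above Hk2, Pfkp above Pfkl and Pfkm, Aldoa above Aldoc, and Eno1 above Eno2 in every file, while Pfkm has its lowest point in siU2af65.

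The 3 genes that handle the end product were all lower in siCtrl b by 1 or more. Ldha, the lactate dehydrogenase subunit that makes lactate, had 1423 RPKM in siU2af65, 925 in siPtbp1, 936 in siCtrl b, 2070.4 in siCtrl a, 616 in shnSR100 and 623 in shGFP. Pdk1, the kinase that keeps pyruvate out of mitochondria, had 5.59 RPKM in siU2af65, 1.49 in siPtbp1, 1.95 in siCtrl b, 10.0 in siCtrl a, 2.11 in shnSR100 and 2.82 in shGFP. In both genes siCtrl a was highest, siU2af65 second, and the other 4 files lay well below. Slc16a3, the MCT4 lactate exporter, differed by -1.09 between siCtrl b and siCtrl a. Pfkfb3 and Pfkfb4, which set the level of fructose 2,6-bisphosphate, the activator of phosphofructokinase, are HIF-1 targets in many cells but did not share this order. Pfkfb3 had 19.8 RPKM in siU2af65, 21.4 in siPtbp1, 20.7 in siCtrl b, 15.0 in siCtrl a, 26.2 in shnSR100 and 25.9 in shGFP. Pfkfb4 lay between 2.10 and 3.59 RPKM, again with its lowest RPKM in siCtrl a. In CPM (counts scaled to library size, with TMM factors) it had 7.19 in siU2af65 and 7.34 in siCtrl a.

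In oxygen sensing, the RNA of the factor and that of its hydroxylase differed in opposite directions between the controls, by little for the factor. Hif1a had 38.7 RPKM in siU2af65, 40.4 in siPtbp1, 41.5 in siCtrl b, 34.9 in siCtrl a, 53.1 in shnSR100 and 44.8 in shGFP. Egln1, the main hydroxylase and itself a HIF target, had 80.8 RPKM in siU2af65, 30.1 in siPtbp1, 40.3 in siCtrl b, 107 in siCtrl a, 33.9 in shnSR100 and 37.2 in shGFP. So in RPKM siCtrl a had the least Hif1a and the most Egln1 RNA of the 6 files. On the TMM-scaled CPM scale Hif1a was not lowest in siCtrl a, with 174 in siU2af65 and 175 in siCtrl a. The difference between siCtrl b and siCtrl a was 0.24 for Hif1a and -1.38 for Egln1, against an all-gene median of 0.15.

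The widest gaps of all were among HIF targets outside glycolysis. Adm, the vasodilator peptide adrenomedullin, had 25.2 RPKM in siU2af65, 12 in siPtbp1, 13.8 in siCtrl b, 90.9 in siCtrl a, 1.94 in shnSR100 and 1.94 in shGFP. Ankrd37, a small ankyrin repeat protein, had 76.9 RPKM in siU2af65, 25.3 in siPtbp1, 26.9 in siCtrl b, 170.4 in siCtrl a, 5.18 in shnSR100 and 4.55 in shGFP. In siCtrl b, Adm stood at 15.2% (95% counting interval 14.4 to 16.1%) and Ankrd37 at 15.8% (95% counting interval 14.9 to 16.6%) of the siCtrl a level. Both genes were thus at a few RPKM in the hairpin cells, intermediate in siU2af65 and highest in siCtrl a.

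Mitophagy receptors behaved alike. Bnip3 had 246 RPKM in siU2af65, 92.7 in siPtbp1, 108 in siCtrl b, 459.7 in siCtrl a, 31.4 in shnSR100 and 47.4 in shGFP. Its relative Bnip3l had 77.1 RPKM in siU2af65, 35.9 in siPtbp1, 35.7 in siCtrl b, 95.3 in siCtrl a, 23.5 in shnSR100 and 30.6 in shGFP. Both were highest in siCtrl a and next highest in siU2af65, and the hairpin files lay below every siRNA library.

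Other stress and matrix genes followed. Ddit4, the REDD1 inhibitor of mTORC1, had 295 RPKM in siU2af65, 177 in siPtbp1, 222 in siCtrl b, 579 in siCtrl a, 143 in shnSR100 and 163 in shGFP. Ndrg1, a stress-induced gene, had 23.3 RPKM in siU2af65, 5.55 in siPtbp1, 7.61 in siCtrl b, 32.9 in siCtrl a, 3.78 in shnSR100 and 6.87 in shGFP. Higd1a, a mitochondrial inner membrane protein, had 60.8 RPKM in siU2af65, 36.5 in siPtbp1, 33.5 in siCtrl b, 97.5 in siCtrl a, 21.8 in shnSR100 and 21.1 in shGFP. All 3 were lower in siCtrl b than in siCtrl a, with differences of -1.38, -1.98 and -1.51 for Ddit4, Ndrg1 and Higd1a on the log2(RPKM + 1) scale, and siU2af65 lay between the controls. P4ha2, a collagen prolyl hydroxylase subunit, had 153 RPKM in siU2af65, 66.5 in siPtbp1, 90.5 in siCtrl b, 208 in siCtrl a, 89.6 in shnSR100 and 82.5 in shGFP. P4ha1, its paralog, the histone demethylase Kdm3a, the oxidase Ero1l of the endoplasmic reticulum, the Myc antagonist Mxi1 and the vascular growth factor Vegfa differed by -0.98, -1.38, -1.18, -0.90 and -0.74 between siCtrl b and siCtrl a.

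The order of the siRNA libraries followed the letters of their labels in most of the genes. Both libraries with the letter a lay above both with the letter b in 31 of the 37 genes, against 1338 of 12179 genes over all (11%). In 4 genes, Pfkm, Pfkfb3, Pfkfb4 and Hif1a, both a libraries lay below both b libraries, against 23.4% of all genes. Hk1 and Aldoc were split, with siU2af65 below the b libraries and siCtrl a above them. The labels do not say what the letters stand for. With 1 knockdown library per letter, a term for the letter and one for the knockdown leave no residual degree of freedom.

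The question of the U2af65 comparison is what loss of a general splicing factor does to the RNA of these genes, and the sign of the difference depended on the control. Against siCtrl a, which shares its letter, siU2af65 was lower in 34 of the 37 genes, against 4325 of 11503 genes over all. It was lower by 1 or more in 6 of the 37, namely Aldoc, Adm, Slc2a3, Ankrd37, Slc2a1 and Pgk1, against 2.9% of all genes. The median difference was -0.54, against 0.17 over all genes. Against siCtrl b, siU2af65 was higher in 31 of the 37, against 6278 of 11595 genes over all. It was higher by 1 or more in 6 of the 37, against 2.52% of all genes. The median was 0.62, against 0.04 over all genes. Both comparisons share the siU2af65 library. In 34 of the 37 genes the siU2af65 level lay between the 2 controls, in none above both, and in 3 below both, namely Hk1, Aldoc and Pfkm. The share of all genes that lay between the controls was not counted, and the controls of most of these genes were far apart.

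Against both controls together, none of the 37 genes was called in siU2af65 by edgeR's quasi-likelihood test at an adjusted p under 0.05, while 589 of 11237 genes were (5.24%). The test takes its spread from the control pair, with 1 residual degree of freedom moderated across genes. At an unadjusted p under 0.05 there were 3 of the 37, all lower, against 23.5% of all genes in either direction, and they were the 3 below both controls. Aldoc had 28.4 CPM (counts scaled to library size, with TMM factors) in siU2af65, against 89.4 ± 58.7 in siCtrl (SD, n = 2), a log2 fold change of -1.65 (SE 0.49, edgeR adjusted p = 0.0798). Pfkm had 81.7 CPM in siU2af65, against 134 ± 1.19 in siCtrl (SD, n = 2), a log2 fold change of -0.71 (SE 0.21, edgeR adjusted p = 0.0808). Hk1 had 288 CPM in siU2af65, against 499 ± 193 in siCtrl (SD, n = 2), a log2 fold change of -0.79 (SE 0.35, edgeR adjusted p = 0.209). Pfkm is the one of the 3 whose controls nearly coincided.

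For Slc2a3 the log2 fold change of siU2af65 over siCtrl was -1.04 (SE 0.60, edgeR adjusted p = 0.331), and without siCtrl a it was 0.11. Hif1a had a log2 fold change of -0.08 (edgeR adjusted p = 0.869), a value that turned to 0.02 with library totals in place of TMM. The median over the 37 genes was -0.23 and became 0.58 without siCtrl a. Other analyses of the siU2af65 libraries called a few of the genes, all lower. DESeq2 called 1 of the 37, against 9.3% of all genes. Calls numbered 3 of the 37 with edgeR on library totals, against 10.3% of all genes, and 3 with limma on log2(RPKM + 1), against 11.4%. Without a filter on low values, edgeR called 3 of all 39, against 9.36% of all genes. Aldoc was among the calls of each of them, with adjusted p between 2.92e-07 and 0.0062.

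After Ptbp1 knockdown the comparison with the control of the same letter showed small differences. Against siCtrl b, none of the 37 genes differed by 1 or more on the log2(RPKM + 1) scale, in a comparison where 0.414% of all genes were lower by that much. Of the 37, 30 had lower levels in siPtbp1, against 5828 of 11346 genes over all. The median was -0.19, against -0.01 over all genes. The 4 widest differences were those of Eno1 (-0.69), Hk2 (-0.54), Aldoa (-0.48) and P4ha2 (-0.44). Eno1 in siPtbp1 stood at 62.1% of siCtrl b (95% counting interval 60.3 to 63.9%) and Hk2 at 67.5% (95% counting interval 65.5 to 69.5%). Ldha and Pgk1 stood at 98.9% and 96%. Against siCtrl a the same library was lower by 1 or more in 30 of the 37 genes, against 1.56% of all genes, with a median of -1.39, against 0.15 over all genes.

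With both controls in the fit, edgeR called none of the 37 genes in siPtbp1 at an adjusted p under 0.05, and 3 of 11237 genes overall (0.0267%). At an unadjusted p under 0.05 there were 17 of the 37, all lower, against 4.28% of all genes in either direction. The median log2 fold change was -0.99, against 0.01 over all genes. Hk2 had 100 CPM in siPtbp1, against 270 ± 172 in siCtrl (SD, n = 2), a log2 fold change of -1.43 (SE 0.48, edgeR adjusted p = 0.961). Eno1 had 102 CPM in siPtbp1, against 250 ± 124 in siCtrl (SD, n = 2), a log2 fold change of -1.30 (SE 0.39, edgeR adjusted p = 0.829). For Slc2a1 and Bnip3, whose controls were far apart, the log2 fold changes were -1.88 and -1.70 (SE 0.68 and 0.70, edgeR adjusted p = 0.999 for each). Without siCtrl a these became -0.43 for Slc2a1 and -0.21 for Bnip3, and those of Hk2 and Eno1 became -0.56 and -0.68.

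The number of genes called in siPtbp1 depended on the analysis. Among the 37, edgeR on library totals called 19, against 0.765% of all genes, and limma on log2(RPKM + 1) called 15, against 0.881%. Without a filter, edgeR called 11 of all 39, against 0.562% of all genes, and the calls of all 3 analyses were lower in siPtbp1. DESeq2 called none of the 37, against 0.182% of all genes, and gave 17 at an unadjusted p under 0.05, against 3.86% of all genes. The controls of these genes differed by a median of -1.19, and against siCtrl b alone no gene passed 1. A single value in 1 library against 2 controls cannot go below p = 0.333 in an exact permutation test.

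**Figure D3:**
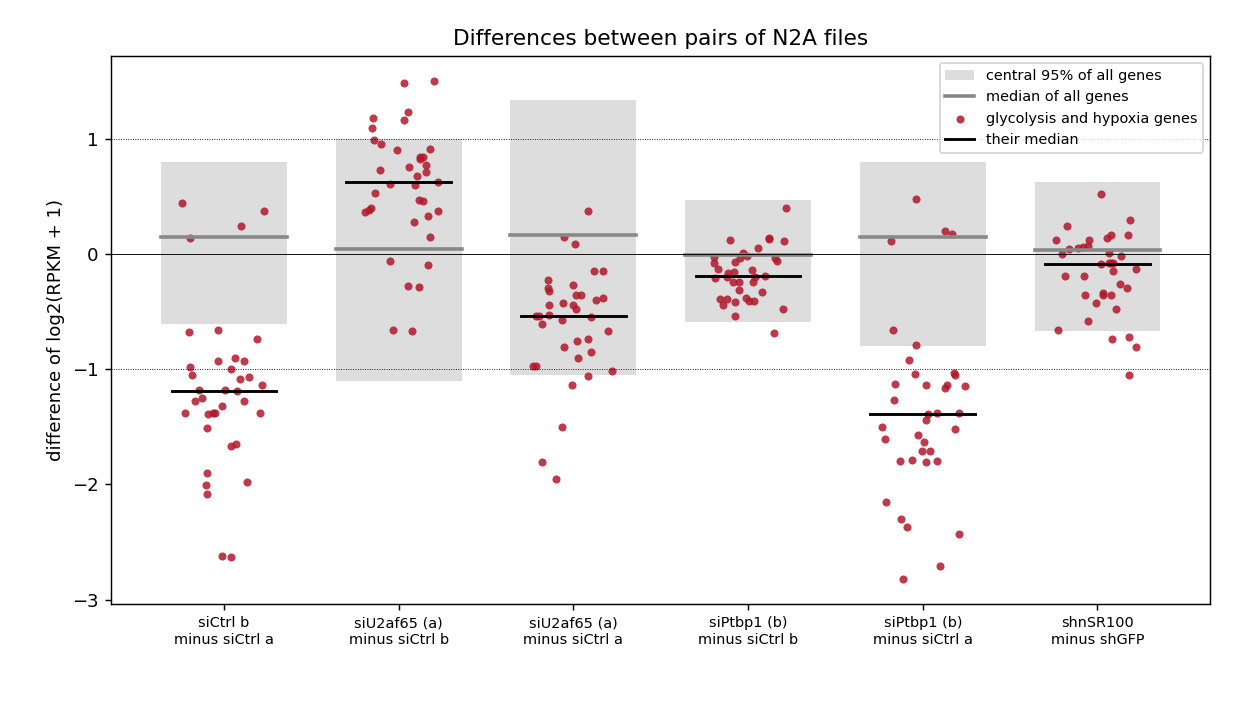
Difference of log2(RPKM + 1) between pairs of N2A files for the 37 genes, 1 point per gene, with their median as a black bar, the central 95% of all genes as a grey box and the all-gene median as a grey bar. The genes lie around -1.19 between the controls, around 0.62 and -0.54 for siU2af65 against siCtrl b and siCtrl a, and around -0.19 and -1.39 for siPtbp1 against siCtrl b and siCtrl a.

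Knockdown of nSR100, which asks what a neural splicing activator contributes to these RNAs in neuroblastoma cells, left most of the genes within a narrow range, and Aldoc, Hk1, Eno2 and Ndrg1 lay lowest. On the log2(RPKM + 1) scale, 1 of the 37 genes, Aldoc, was lower in shnSR100 by 1 or more (-1.05), against 0.615% of all genes, and none was higher by as much. The median was -0.09, against 0.03 over all genes. Of the 37, 23 were below 0 and 13 above, against 5231 and 6619 of 11877 genes over all. Aldoc in shnSR100 stood at 44.9% of the shGFP level (95% counting interval 41.9 to 48%). Ndrg1 stood at 55% (50.2 to 60.3%) and Hk1 at 56.6% (55.4 to 57.9%). Eno2 stood at 59.1% (57.1 to 61.2%), and Slc2a3 and Bnip3 at 62.7% and 66.2%. Aldoa, Eno1 and Slc2a1 stood at 78%, 104% and 72.6%.

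Among the lactate and pyruvate genes, Ldha in shnSR100 stood at 98.8% of the shGFP level (95% counting interval 97.8 to 99.9%), Slc16a3 at 93.8% and Pdk1 at 74.9%. Pkm was slightly higher in shnSR100, with 786 RPKM against 714 in shGFP. Hif1a stood at 119% (116 to 121%) and P4ha1 at 123% (120 to 125%). For Gapdh the interval ran from 88.3 to 371%, too wide to show a difference at this depth. Adm had 1.94 RPKM in both files. The 2 files have no replicates, so no difference between shnSR100 and shGFP has an error across cultures. Summed fibroblast markers were also higher in shnSR100 than in shGFP, as given above, and summed neuroblast markers were 731 in shnSR100 and 1064 in shGFP, and their part in these differences was not tested.

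**Figure D4:**
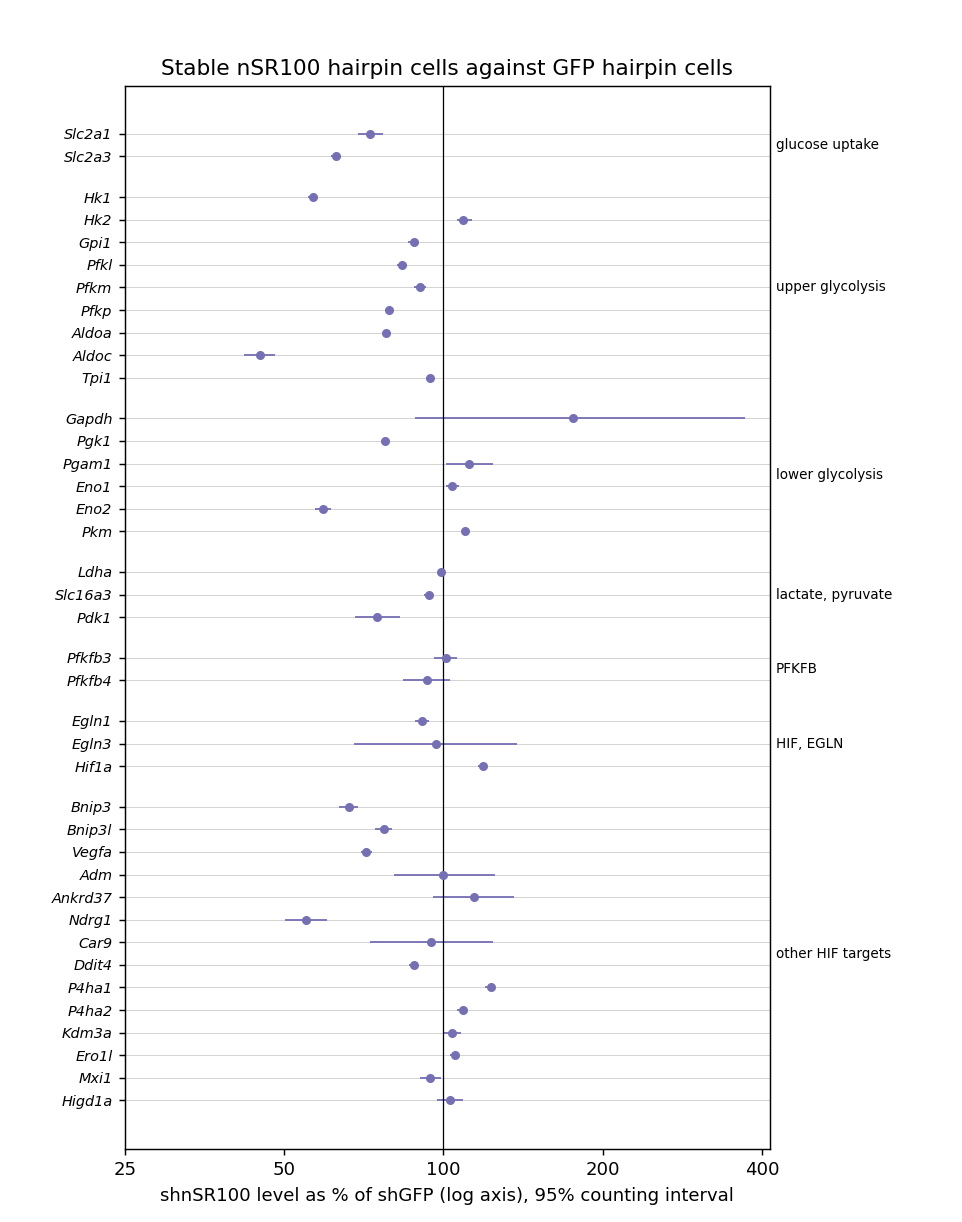
Level in shnSR100 as a percent of the level in shGFP for each of the 39 genes, on a log axis, with bars for the 95% counting interval from the reads of the 2 files. Aldoc, Ndrg1, Hk1, Eno2 and Slc2a3 lie furthest left, and Gapdh, Egln3, Car9, Adm and Ankrd37 have wide bars.

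Stable hairpin cells sat at the low end for most of the pathway. Both hairpin files lay below both a libraries in 31 of the 37 genes, against 18.3% of all genes, and below all 4 siRNA libraries in 19, against 14.3%. In 4 genes, Pfkm, Pfkfb3, Pfkfb4 and Hif1a, both hairpin files lay above all 4 siRNA libraries, against 30.3% of all genes. Set against siCtrl b, shGFP was lower by 1 or more in 4 of the 37 genes, namely Adm, Ankrd37, Bnip3 and Pgk1 (-2.33, -2.33, -1.17 and -1.08), against 1.99% of all genes. The median was -0.44, against 0.10 over all genes. The hairpin cells differ from the siRNA cells in transduction and puromycin selection, and their files combine runs of different read length, and these cannot be told apart.

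Further genes of the same pathways were counted from lists of genes outside the 39, also chosen with earlier results of these data known. Of 30 other HIF targets, 23 had at least 1 RPKM in a control library. Of these 23, 21 were lower in siCtrl b than in siCtrl a, against 3476 of 11350 genes over all. The median was -0.84, against 0.15 over all genes, and 8 were lower by 1 or more, against 0.952% of all genes. Among these 8, Hilpda, a lipid droplet protein, had 18.5 RPKM in siU2af65, 7.89 in siPtbp1, 11.4 in siCtrl b, 43.6 in siCtrl a, 16.4 in shnSR100 and 15.7 in shGFP. Fam162a, a mitochondrial protein, had 273 RPKM in siU2af65, 130.2 in siPtbp1, 153 in siCtrl b, 501 in siCtrl a, 141 in shnSR100 and 117 in shGFP. Bhlhe40, Car12, Plod2, Zfp395 and Hmox1 were also among the 8.

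Of 21 other glycolysis and pyruvate genes, 9 were measured in the control pair. Of the 9, 1 was lower in siCtrl b by 1 or more, against 0.952% of all genes. That gene was listed as Pgm1, a phosphoglucomutase, with 43.7 RPKM in siCtrl b and 101 in siCtrl a. The median of the 9 was 0.17, against 0.15 over all genes. Of 14 genes of the HIF machinery, 11 were measured, with a median of -0.03. None of the 11 differed by 1 or more, against 108 lower and 86 higher of 11350 genes over all. In siU2af65, edgeR called none of the 9 glycolysis genes, 1 of the 11 machinery genes and 2 of the 23 HIF targets at an adjusted p under 0.05, against 5.24% of all genes. The machinery gene was Cul2, the scaffold of the ubiquitin ligase that destroys the HIF alpha subunit, which fell to 10.5 RPKM in siU2af65, against 21.8 in siCtrl b and 18.6 in siCtrl a (edgeR adjusted p = 0.0339). Among the HIF targets, Stc2, a secreted stanniocalcin, rose to 32.3 RPKM in siU2af65, against 15.1 in siCtrl b and 7.84 in siCtrl a. Plod1, a lysyl hydroxylase, fell to 20.1 RPKM in siU2af65, against 70.8 in siCtrl b and 40.7 in siCtrl a. In siPtbp1, edgeR called none of the genes of these 3 lists, and at an unadjusted p under 0.05 there were 9 of the 23 HIF targets, 1 of the 9 glycolysis genes and none of the 11 machinery genes, against 4.28% of all genes.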

How the data were processed

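Poly(A) RNA-seq of N2A cells was analysed in 6 files of the series' 22 samples; data from other samples were not analysed here. Per the files, the authors deposited read counts and RPKM values per Ensembl gene, and 1114 of 22667 identifiers had no RPKM. RPKM equalled the count divided by the file's total and by a length fixed per gene (within 0.74% over 10346 genes). The submitters' processing notes name Bowtie, bedtools 2.17.0, mm9 and hg19 without saying what each was used for. The counting rule, use of strand and annotation are not given in the sources used here. Symbols were matched for 20759 identifiers.

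edgeR 4.0.16 (R 4.3.3) ran the quasi-likelihood test on the counts of the 4 siRNA libraries in 3 groups, with TMM scaling, over the 11237 genes that averaged 1 RPKM or more, and Benjamini-Hochberg adjustment at 0.05. It left 1 residual degree of freedom and 8.65 prior degrees of freedom, and the common dispersion was 0.0375. DESeq2 1.42.0 and limma 3.58.1 were alternatives. Pairs of single files were described by differences of log2(RPKM + 1), over genes with at least 1 RPKM in either file. On that scale, changes of weakly expressed genes are understated. Intervals on reads are exact binomial (95%).

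The 39 genes and all lists were chosen with earlier results of these data known. Values in every file are given for hexokinase and pyruvate kinase paralogs, the 12 widest gaps between the controls, the 4 widest differences in each other pair, and Hif1a, Gapdh, Ldha and Slc2a1; further genes were named after their values were seen. Not every gene of these lists is reported here by name. The labels do not state whether the siCtrl libraries are separate cultures. The p-values therefore rest on a spread between these samples that may be technical.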

Additional observations from a re-analysis of the deposited data

How the results depend on the processing

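In siU2af65, where edgeR with TMM called none of the 37 genes tested, 3 were called on library totals, 1 by DESeq2, 3 by limma on log2(RPKM + 1), 3 with a pseudocount of 0.1 and 3 of all 39 by edgeR without a filter. The genes called over the whole table numbered 589 and became 1158, 1045, 1285, 1261 and 1649 under these analyses, 257 with a minimum mean of 5 RPKM and 0 with shGFP added to the controls, where 1162 genes had an unadjusted p under 0.05. The median log2 difference of the genes in siU2af65 turned from -0.23 to 0.06 under limma with either pseudocount and to 0.05 with shGFP added, and ran from -0.70 without siCtrl b to 0.58 without siCtrl a. In siPtbp1, where edgeR with TMM called none, 19 were called on library totals, 15 by limma with either pseudocount and 11 of all 39 without a filter. In siPtbp1, 3 genes were called over the whole table, against 86 on library totals, 20 by DESeq2, 99 and 106 by limma with pseudocounts of 1 and 0.1, 1 with a minimum mean of 5 RPKM, 99 without a filter and 0 with shGFP added, where 167 genes had an unadjusted p under 0.05. The median in siPtbp1 ran from -1.53 without siCtrl b to -0.19 without siCtrl a. The 6 genes lower by 1 or more in siU2af65 than in siCtrl a became 13 on TMM-scaled CPM and 10 after centring on the median gene. For Slc2a3 in siU2af65 the log2 fold change was 0.11 without siCtrl a and -1.67 without siCtrl b. Hif1a changed sign within a range near 0, to 0.02, 0.02 and 0.03 in siU2af65 on library totals and by limma with pseudocounts of 1 and 0.1, and to -0.01 with shGFP added and -0.03 without siCtrl a in siPtbp1. The cause of these changes was not tested. The count of 26 genes lower in siCtrl b than in siCtrl a stayed within 1.5 times under every scaling and pseudocount tried. No paired analysis was possible because each knockdown has 1 library, a term for the letter leaves no residual degree of freedom, and each hairpin file combines its 2 runs. With 1 library per knockdown, the spread between libraries of a knockdown is unknown, and counting error adds to it for Gapdh, Egln3 and Car9 in every file and for Adm and Ankrd37 in the hairpin files.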

Other observations

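Genes of the same pathways that lie outside the 39 did not all share the order of the control libraries. Eno3, the muscle enolase, had 16.9 RPKM in siU2af65, 7.96 in siPtbp1, 7.23 in siCtrl b, 6.30 in siCtrl a, 15.7 in shnSR100 and 12.1 in shGFP. Pfkfb1, a relative of Pfkfb3, had 9.08 RPKM in siU2af65, 6.06 in siPtbp1, 4.64 in siCtrl b, 2.86 in siCtrl a, 2.40 in shnSR100 and 1.80 in shGFP. For both genes siU2af65 was the highest of the 6 files, and siCtrl a was the lowest of the siRNA libraries. Hmox1, the haem oxygenase gene, a target of HIF-1 and of oxidative stress signalling, had 311.9 RPKM in siU2af65, 56.0 in siPtbp1, 71.8 in siCtrl b, 156 in siCtrl a, 45.7 in shnSR100 and 36.9 in shGFP. Unlike all 37 genes with at least 1 RPKM described above, it was higher in siU2af65 than in both controls. Ldhb, the lactate dehydrogenase subunit that favours pyruvate, had no read in any siRNA library or in shGFP and 3 reads in shnSR100. Epas1, which encodes the alpha subunit of HIF-2, stayed at or under 0.03 RPKM in every file.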
